A study of Mus musculus with 11 samples.

Results

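The expression of 10 genes that encode chemokines and chemokine receptors of skin and gut homing was examined in the skin and small intestine of control and imiquimod (IMQ)-treated mice. The genes were chosen by name from the 45777 genes of the expression table, by a rule that uses no measured value, although earlier results of these data were known when they were listed, and all 10 were found. They are the ligands *Ccl17*, *Ccl20*, *Ccl25*, *Ccl27a* and *Ccl28* and the receptors *Ccr4*, *Ccr6*, *Ccr8*, *Ccr9* and *Ccr10*. The mice were BALB/c, without any engineered allele, and were 8 to 10 weeks old at treatment. They received 62.5 mg of cream per day on shaved skin, which was 5% IMQ (Aldara) in the treated group and Vaseline in the control group, and the sample annotation gives 5 to 8 days on the back and the right ear. IMQ is an agonist of the endosomal receptor TLR7 that causes psoriasis-like dermatitis when applied to mouse skin. RNA of whole tissue was sequenced for skin in 3 control (numbered 1 to 3) and 3 IMQ (4 to 6) libraries, and for small intestine in 3 control (7 to 9) and 2 IMQ (10 and 11) libraries. Which part of the intestine was taken, and whether a skin and an intestine sample came from one mouse, was not given in the sources used here. The p-values therefore measure the spread between these samples.

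Chemokines are small secreted proteins that guide leukocytes, which carry the matching receptors on their surface. Lymphocytes that are primed in lymph nodes of the skin or of the gut acquire different receptors and adhesion molecules and return to the tissue where the ligand is made. CCL27 from keratinocytes and CCL17 from dendritic and endothelial cells draw skin-homing T cells through CCR10 and CCR4. CCL25 from the epithelium of the small intestine draws lymphocytes with CCR9, CCL28 from mucosal epithelium draws IgA plasma cells through CCR10, and CCL20 recruits CCR6-positive cells at both surfaces.

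The 5 ligands belong to the CC family, which is named for a pair of adjacent cysteines. The codons of that pair, in capitals, are shown with 30 bases of coding sequence on each side, taken from the GENCODE transcripts of mouse assembly GRCm38.p6, to place the ligands beside each other.
Ccl17: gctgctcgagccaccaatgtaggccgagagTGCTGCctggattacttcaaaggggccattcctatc
Ccl20: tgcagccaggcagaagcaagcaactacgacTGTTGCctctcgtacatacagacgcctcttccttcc
Ccl25: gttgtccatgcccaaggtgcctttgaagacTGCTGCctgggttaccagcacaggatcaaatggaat
Ccl27a: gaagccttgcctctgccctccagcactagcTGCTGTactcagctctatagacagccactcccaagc
Ccl28: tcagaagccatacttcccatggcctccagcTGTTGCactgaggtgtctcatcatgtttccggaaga
Over these 66 bases, the highest identities among the 10 pairs were 48.5% for *Ccl17* with *Ccl25* and 45.5% for *Ccl27a* with *Ccl28*, the ligands of CCR10. The lowest was 21.2%, for *Ccl25* with *Ccl28*.

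Promoter sequence of 9 of the 10 genes was matched in RefSeq (GRCm38.p6). The 250 bases before a start site are shown for *Ccl20* and *Ccr6*, a ligand and its receptor whose ranges in IMQ-treated skin lay above those of control skin, for *Ccl27a*, which fell in skin, and for *Ccl25* and *Ccl28*, the leading ligands of the small intestine. Each runs 5′ to 3′ along the strand of the gene, and capitals mark matches to GGGNNNNNCC, an NF-kappaB-type motif, on either strand.
Ccl20, chr1:83116516-83116765, strand +: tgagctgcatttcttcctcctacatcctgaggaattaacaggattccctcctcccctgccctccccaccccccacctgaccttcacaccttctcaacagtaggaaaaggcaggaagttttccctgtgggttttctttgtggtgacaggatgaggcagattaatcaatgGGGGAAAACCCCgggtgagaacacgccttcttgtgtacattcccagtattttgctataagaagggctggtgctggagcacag
Ccr6, chr17:8242276-8242525, strand +: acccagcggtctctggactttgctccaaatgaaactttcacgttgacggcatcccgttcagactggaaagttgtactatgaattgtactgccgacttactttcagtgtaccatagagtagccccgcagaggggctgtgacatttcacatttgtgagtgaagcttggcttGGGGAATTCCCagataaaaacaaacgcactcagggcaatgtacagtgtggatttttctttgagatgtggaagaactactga
Ccl27a, chr4:41770213-41770462, strand -: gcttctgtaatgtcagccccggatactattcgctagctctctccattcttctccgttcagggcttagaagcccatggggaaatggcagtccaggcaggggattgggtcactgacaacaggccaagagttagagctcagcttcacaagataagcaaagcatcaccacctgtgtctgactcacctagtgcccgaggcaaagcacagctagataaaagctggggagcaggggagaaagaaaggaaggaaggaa
Ccl25, chr8:4349338-4349587, strand +: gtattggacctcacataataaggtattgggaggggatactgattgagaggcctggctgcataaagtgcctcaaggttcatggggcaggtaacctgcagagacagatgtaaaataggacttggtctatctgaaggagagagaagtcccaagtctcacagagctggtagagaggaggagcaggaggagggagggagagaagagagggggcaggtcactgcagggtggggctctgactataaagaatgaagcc
Ccl28, chr13:119623569-119623818, strand +: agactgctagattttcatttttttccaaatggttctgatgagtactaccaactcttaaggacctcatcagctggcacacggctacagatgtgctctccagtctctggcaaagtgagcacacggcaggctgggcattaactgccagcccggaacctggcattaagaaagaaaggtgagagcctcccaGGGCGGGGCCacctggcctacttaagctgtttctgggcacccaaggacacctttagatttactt
The motif was present in 45.8% of all 32851 mouse windows of this length, so its presence is common. Both strands were also searched for the AP-1-type motif TGANTCA, present in 6.75% of all windows. The GATA-type motif AGATAA was present in 9.99% and the CDX-type motif TTTATNG in 9.81% of them. The STAT-type motif TTCNNNGAA was present in 7.02%. *Ccl20* had 3 overlapping NF-kappaB-type matches between 82 and 71 bases before its start. *Ccl28*, which was not called in skin and fell in the small intestine, had a match 64 to 55 bases before its start. The windows of *Ccr8* and *Ccr9*, which are not shown, also held such matches. The second of the start sites of *Ccr6* had overlapping matches between 81 and 71 bases before it. The window shown for *Ccl27a* had no NF-kappaB-type match and held the AP-1-type match TGACTCA 77 to 71 bases before the start and a pair of GATA-type matches, the nearer one 44 to 39 bases before it. The 17 to 11 bases before the *Ccl25* start held a CDX-type match on the opposite strand, written CTATAAA on the strand shown, whose letters overlap those of a TATA box. RefSeq lists another start for *Ccl25* at 4325210, another for *Ccr6* at 8236043 and others for *Ccl27a* at 41774101 and 41774176, which are not shown. The windows of both other *Ccl27a* starts held NF-kappaB-type matches. That of the other *Ccr6* start held STAT-type matches and no NF-kappaB-type match. Presence of the NF-kappaB-type motif thus depended on the start chosen for these genes. These are matches of letters in the window, and binding was not measured.

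The 11 libraries had 44995414 to 58526384 counts. In the skin libraries the summed counts of 8 keratinocyte markers were 9859 to 29482 CPM (counts scaled to the library total), against 1.505 to 4.43 in the small intestine, and the sum of 9 markers of intestinal epithelium was 16623 to 37110 in the small intestine against 133 to 479 in skin. Skin control replicate 2 stood apart. Measured against control small intestine, its intestinal epithelium markers had a median level of 0.822%, against 0% to 0.0272% in the other 5 skin libraries. The hair follicle keratins and regulators also varied within control skin, with a summed level of 13.9 to 2005 CPM, against 10.2 to 16.2 in IMQ-treated skin.

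Levels of different genes were compared as FPKM, fragments scaled by transcript length and library size, as the authors computed it. In control skin, *Ccl27a* was the most abundant of the 10, at 41.0 ± 9.88 FPKM (SD, n = 3), and its range did not overlap that of the next gene. *Ccl20* had the next mean, 4.98 ± 2.83 FPKM, and its range overlapped those of *Ccl17* (2.47), *Ccl25* (2.37), *Ccr4* (2.32) and *Ccr6* (2.04), so these 5 genes could not be ordered beyond their spread. Below them came *Ccr8* at 0.787 ± 0.0560, *Ccr9* at 0.635 ± 0.134, *Ccl28* at 0.313 ± 0.119 and *Ccr10* at 0.259 ± 0.0794 FPKM, and the ranges of *Ccl28* and *Ccr10* overlapped. In IMQ-treated skin, *Ccl27a* (10.4 ± 2.97 FPKM) and *Ccl20* (10.3 ± 0.367) had overlapping ranges at the top, and *Ccr6* followed at 5.15 ± 2.002 FPKM.

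The order was different in the small intestine. *Ccl25* led at 391 ± 26.5 FPKM (SD, n = 3) in control mice, and *Ccl28* was second at 16.7 ± 2.73. *Ccr9* (2.85 ± 0.193) was the highest receptor, and its range lay above that of *Ccr10* (2.16 ± 0.334), which overlapped *Ccl20* (1.88 ± 0.701). *Ccr6* (0.548 ± 0.214) and *Ccl17* (0.539 ± 0.132) overlapped each other. *Ccr4* (0.146 ± 0.0148), *Ccl27a* (0.0821 ± 0.0598) and *Ccr8* (0.0322 ± 0.0320) were lowest. In the 2 IMQ libraries, *Ccl25* (294 and 296 FPKM) and *Ccl28* (9.55 and 9.21) kept the first ranks, and the ranges of *Ccr9* and *Ccr10* overlapped there.

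**Figure D1:**
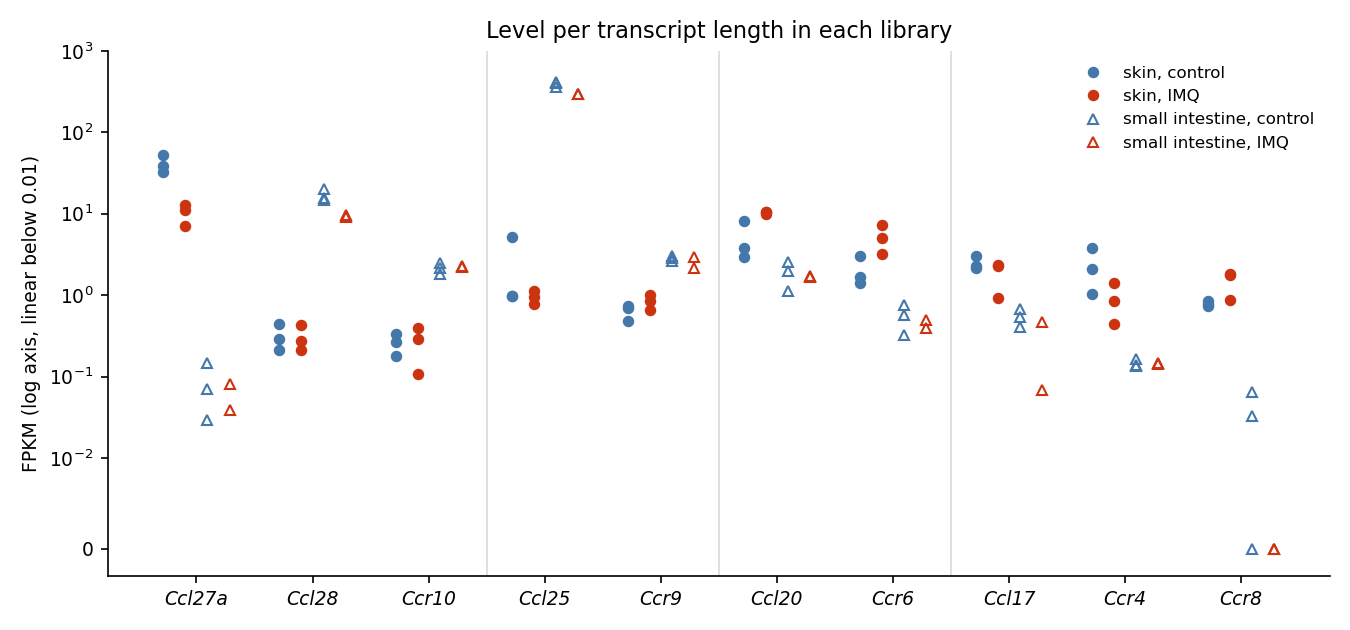
FPKM of the 10 genes in each of the 11 libraries, on a log axis that is linear below 0.01, with filled circles for skin, open triangles for small intestine, blue for control and red for IMQ, and grey lines between the ligand and receptor groups. *Ccl25* in the small intestine lies between 294 and 409 FPKM, and *Ccl27a* in control skin between 32.8 and 52.0 FPKM, whereas each is far lower in the other tissue.

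The first question was how the tissues differ without treatment. In control mice, 9 of the 10 genes differed between small intestine and skin, 4 of them higher and 5 lower in the small intestine. Of all 26103 genes tested, 50.8% differed, 24.4% higher and 26.4% lower, so most genes distinguished these tissues (edgeR's quasi-likelihood test on counts, Benjamini-Hochberg adjusted p under 0.05). The median log2 difference, small intestine minus skin, was -1.28 over the 10 genes and -0.08 over all genes. Among all genes that differed, 48.0% were higher in the small intestine by counts and 30.5% by log2(FPKM + 1). The median of all genes was -0.18 with TMM and -0.49 on the log2(FPKM + 0.01) scale, and the directions given here for the 10 genes were the same under each scaling.

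The gut ligands had the widest upward differences. *Ccl25*, the ligand of CCR9, was 212-fold higher in control small intestine (log2 difference 7.73 ± 0.69 SE, adjusted p = 8.73e-06). It had 24120 to 25612 counts in the small intestine and 68, 287 and 73 counts in skin control replicates 1, 2 and 3. The count of replicate 2 is the highest of the 3, and the excess over the other two was 0.832% of the level in control small intestine, next to the 0.822% for the epithelial markers. The part of the latter in the *Ccl25* level was not tested. Without that replicate the log2 difference was 8.98. *Ccl28* was 68.9-fold higher in the small intestine (6.11 ± 0.31, adjusted p = 3.31e-07), with 3150 to 4013 counts against 49, 86 and 69 in skin.

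The receptors of these ligands were also higher in the small intestine, by smaller factors. *Ccr10*, the receptor of CCL27 and CCL28, was 11.2-fold higher (3.48 ± 0.40, adjusted p = 4.28e-05), with 203 to 233 counts against 18 to 35 in skin. *Ccr9* was 6.06-fold higher (2.60 ± 0.24, adjusted p = 1.17e-05), with 626 to 865 counts against 126 to 184. Plasma cell genes, of which 6 of 7 were higher in control small intestine, summed to 6355 to 12472 CPM there and to 361 to 507 in control skin. T cell genes summed to 67.3 to 104 CPM in control small intestine and 31.7 to 56.3 in control skin. In whole tissue, more cells of a type and more RNA per cell cannot be told apart.

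The skin ligand *Ccl27a* was 63.0-fold lower in control small intestine than in skin (log2 difference -5.98 ± 0.52, adjusted p = 6.73e-06), with 3, 24 and 13 counts against 973 to 1226. On the log2(FPKM + 0.01) scale the difference was -8.99. The transcript length that count and FPKM imply together was 516 to 565 bases in control skin and 2111 to 3396 bases in control small intestine, so FPKM and counts were scaled differently in the tissues for this gene. Without small intestine control replicate 8, the library with 24 counts, the difference by counts was -6.72. *Ccr8*, a receptor of regulatory and type 2 T cells, was 13.9-fold lower (-3.80 ± 0.66, adjusted p = 0.00105), with 5, 0 and 3 counts in the small intestine and 50 to 53 in skin. Without the library with 5 counts, replicate 7, the difference was -4.66, and on the log2(FPKM + 1) scale, which understates low genes, it was -0.79. *Ccr4* was 11.04-fold lower (-3.46 ± 0.56, adjusted p = 0.000468, and -2.82 without skin control replicate 2), *Ccl17* 3.18-fold lower (-1.67 ± 0.42, adjusted p = 0.00690) and *Ccr6* 2.98-fold lower (-1.58 ± 0.39, adjusted p = 0.00676). Of 6 genes of regulatory and type 2 T cells, 5 were also lower in the small intestine. Among them were *Gata3* (-6.51 ± 0.18), which keratinocytes express too, and *Foxp3* (-3.27 ± 0.32). The remaining gene of the list was higher there (0.85 ± 0.53) but was not called. The part of keratinocytes in the *Gata3* difference was not tested.

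*Ccl20* alone of the 10 did not pass the test in control mice (-0.99 ± 0.41, adjusted p = 0.0672). It passed with TMM normalization (adjusted p = 0.0417), with DESeq2 (0.0385), on both FPKM scales (0.0189 and 0.0228) and without skin control replicate 3 (0.0191), whereas without skin control replicate 2 the difference was -0.34 (adjusted p = 0.346). The adjusted p over all alternatives was 0.0189 to 0.346.

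In IMQ-treated mice, all 10 genes differed between the tissues, 4 of them higher and 6 lower in the small intestine, where 45.7% of all genes differed, 23.2% higher and 22.5% lower. The same 4 genes as in control mice, *Ccl25* (8.60 ± 0.74), *Ccl28* (5.34 ± 0.31), *Ccr9* (2.03 ± 0.26) and *Ccr10* (3.54 ± 0.42), were higher. *Ccl20* was 4.40-fold lower in the small intestine (-2.14 ± 0.49, adjusted p = 0.00468) and *Ccr6* 8.49-fold lower (-3.09 ± 0.48, adjusted p = 0.000470). *Ccr8* had 0 counts in both IMQ libraries of the small intestine and 53, 109 and 107 in IMQ-treated skin, at least 24.6-fold higher in skin against a floor of 3 counts per library. *Ccl27a* was 22.2-fold lower (-4.47 ± 0.60, adjusted p = 0.000162). The call of *Ccl17* (-1.95 ± 0.51, adjusted p = 0.00996) was lost without small intestine IMQ replicate 11 (-1.52, adjusted p = 0.0863), and the difference was -2.61 without replicate 10. The call of *Ccr4* (-2.10 ± 0.63, adjusted p = 0.0198) was lost without small intestine IMQ replicate 10 (adjusted p = 0.104) or 11 (0.0916), without skin IMQ replicate 6 (0.0580), with limma-voom (0.0900) and on the log2(FPKM + 1) scale (0.118).

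The second question was how each gene responds to IMQ in the treated tissue. In skin, 1 of the 10 genes passed the test, *Ccl27a*, which fell. Of 20512 genes tested, 6.74% passed, 4.05% higher and 2.69% lower, so the share of the 10 genes is near that of all genes. The median log2 fold change, IMQ against control, was 0.02 over the 10 genes and -0.01 over all. The ranges of IMQ and control libraries did not overlap for 4 of the 10 (*Ccl20*, *Ccl27a*, *Ccr6* and *Ccr8*), as for 28.4% of all genes. The values that follow are normalized counts, that is counts scaled to a common library size within the tissue.

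*Ccl27a* had 985, 1337 and 848 normalized counts in control skin and 252, 335 and 376 in IMQ-treated skin. Every IMQ library was below every control library. The gene fell 3.29-fold (log2 fold change -1.72 ± 0.23 SE, adjusted p = 0.0110). The call was kept in 5 of 6 fits that left out 1 library each and under all 11 other alternatives, and was lost without skin IMQ replicate 5 (-1.74, adjusted p = 0.0607). *Ccl27a* lies on chromosome 4, at 41769467 to 41774225, and shares 8 exon bases with *Il11ra1* on the other strand. Its coding sequence, aligned from the stop codon without gaps, is identical at 402 of 405 bases to that of *Gm13306* and at 306 of 360 to that of *Ccl27b*, so reads of the 3 genes can be confused. *Gm13306* had 451 to 727 counts in control and 97 to 195 in IMQ-treated skin, and *Ccl27b* had 199 to 528 and 54 to 100. The sum of the 3 genes, an alternative chosen after the data were seen, had a log2 fold change of -1.77 (adjusted p = 0.0206), and *Ccl27a* took 49.4% to 60.5% of it in the skin libraries.

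CCL28, the other ligand of CCR10, was not seen to change at the RNA level in skin. *Ccl28* had 44.3, 93.8 and 60.1 normalized counts in control and 49.2, 60.7 and 85.9 in IMQ-treated skin, which overlap (-0.01 ± 0.36, adjusted p = 0.988). *Ccr10* had 16.3, 26.2 and 30.5 against 10.9, 27.8 and 37.1 (0.06 ± 0.47, adjusted p = 0.957). At these counts the standard errors leave room for a change of either sign. *Ccr10* lies wholly within *Cntnap1*, which is on the other strand, with which it shares 0 exon bases. The strand handling of the counts is not given in the sources used here.

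*Ccl20*, which is induced in keratinocytes by IL-17, TNF and IL-1, had 160.2, 369.7 and 123 normalized counts in control skin and 481, 436 and 453 in IMQ-treated skin. The 3 IMQ libraries lay close together and above the highest control library, replicate 2. The test was not passed (1.07 ± 0.40, adjusted p = 0.175), and it was passed without replicate 2 (1.69, adjusted p = 0.00773). *Ccr6*, its receptor, had 249.7, 442 and 219 normalized counts in control and 523, 781 and 1091 in IMQ-treated skin. The ranges did not overlap, and the difference was just short of the threshold (1.40 ± 0.36, adjusted p = 0.0698). *Ccr6* passed without skin control replicate 2 (1.77, adjusted p = 0.0267) and with DESeq2 (adjusted p = 0.00242), and the adjusted p over all alternatives was 0.00242 to 0.211. Without that replicate, 3 of the 10 genes passed in skin: *Ccl27a*, *Ccl20* and *Ccr6*. Calls also became more frequent over all genes without it, with 2521 of 20752 tested, against 1382 of 20512 with all libraries.

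The *Ccl17* axis gave no called change in skin. *Ccl17* had 81.4, 69.8 and 61.0 normalized counts in control and 28.4, 64.8 and 64.7 in IMQ-treated skin (-0.42 ± 0.36, adjusted p = 0.530). IMQ replicate 4 was the low library. *Ccr4* had 287, 561 and 143 in control and 68.8, 129.6 and 204 in IMQ-treated skin, with overlap (-1.30 ± 0.57, adjusted p = 0.235). Control replicate 2 was the highest library here too, and without it the log2 fold change was -0.68 (adjusted p = 0.439). *Ccr8* had 45.2, 55.6 and 46.2 against 57.9, 112 and 113. All 3 IMQ values of *Ccr8* were above the controls, by little in replicate 4 (0.95 ± 0.32, adjusted p = 0.137), and DESeq2 called it (adjusted p = 0.0463). Of the other ligands of these receptors, *Ccl22* (CCR4) had a log2 fold change of 0.06 ± 0.34, *Ccl8* (CCR8 in the mouse) of -0.41 ± 0.40 and *Ccl1* (CCR8) of -0.18 ± 0.37, and none was called.

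The gut pair was low in skin. *Ccl25* had 61.5, 313 and 63.6 normalized counts in control and 75.4, 66.8 and 48.8 in IMQ-treated skin (-1.19 ± 0.67, adjusted p = 0.347). Only control replicate 2 was high, and without it the log2 fold change was 0.03. *Ccl25* also shares 204 of its 7445 exon bases with *Elavl1* on the other strand. *Ccr9* had 166, 172 and 109.8 against 251, 204 and 153, which overlap (0.44 ± 0.28, adjusted p = 0.411), and it shares 1932 exon bases with the annotated transcript *AC165425.1*. *Ackr4*, a scavenger receptor that takes up CCL25 without signaling, had 1049.6, 1666 and 751 normalized counts in control and 294, 332 and 239 in IMQ-treated skin. *Ackr4* fell (-2.002 ± 0.31, adjusted p = 0.0164), whereas *Ackr2*, a scavenger of inflammatory CC chemokines that include CCL17, had a log2 fold change of -0.59 ± 0.31 and was not called (adjusted p = 0.313).

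**Figure D2:**
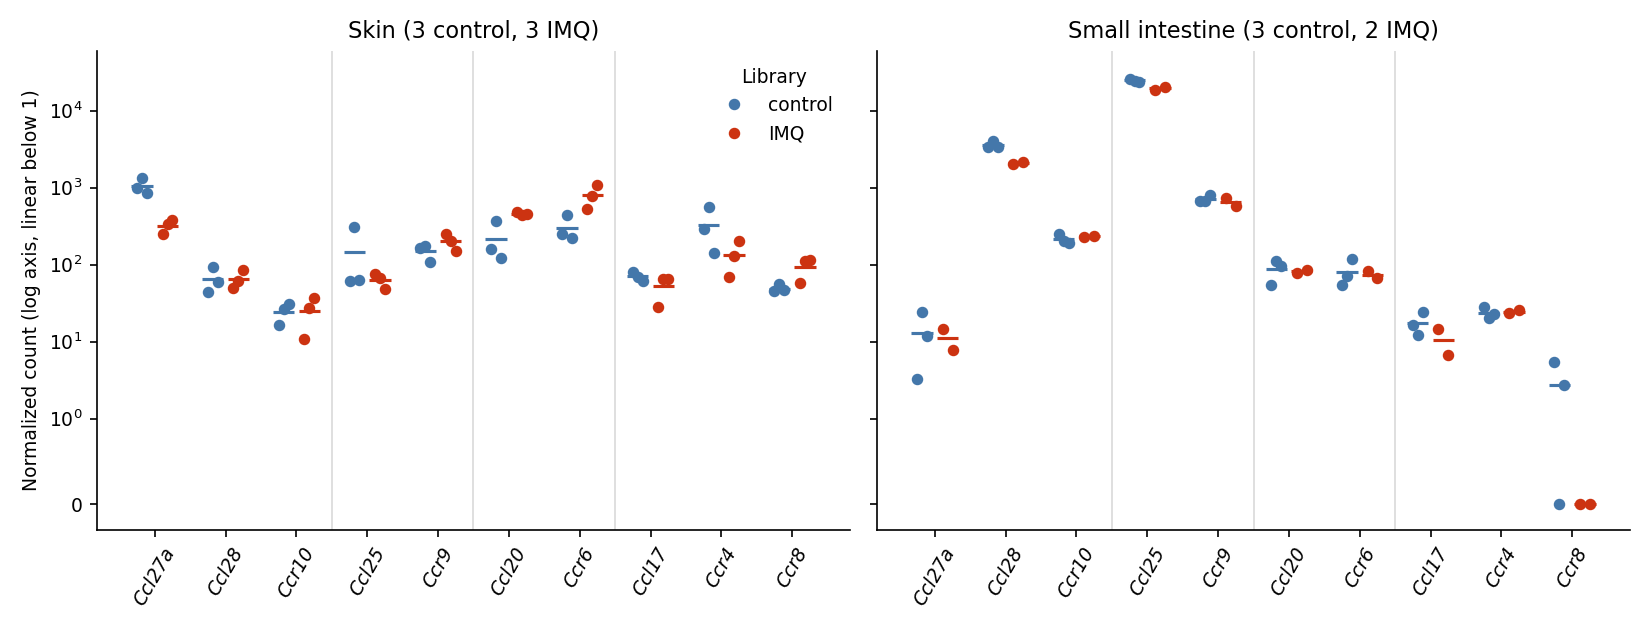
Normalized counts of the 10 genes in each library of skin (left) and small intestine (right), scaled within the tissue, on a log axis that is linear below 1, with blue points for control, red points for IMQ and a bar at the mean of each group. In skin, the IMQ points lie below the control points for *Ccl27a* and above them for *Ccl20*, *Ccr6* and *Ccr8*, and in the small intestine they lie below for *Ccl28* and *Ccl25*.

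The third question was whether the small intestine, to which no cream was applied, responds. The study reported IMQ in the serum and intestine of mice after topical application. Of the 9 genes tested there, 1 passed, *Ccl28*, which fell. Of 19965 genes tested, 2.95% passed, 2.77% higher and 0.17% lower. The median log2 fold change was -0.14 over the 9 genes and -0.02 over all genes, and the ranges of control and IMQ libraries did not overlap for 2 of the 9, as for 29% of all genes.

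*Ccl28* had 3417, 4046 and 3345 normalized counts in control and 2053 and 2140.0 in IMQ-treated small intestine. Both IMQ libraries were below all controls, and the gene fell 1.72-fold (-0.78 ± 0.14, adjusted p = 0.0269). The direction was the same in every alternative, with log2 fold changes of -0.84 to -0.69. The call was lost on both FPKM scales (adjusted p = 0.181 and 0.116), in one fit of all 11 libraries (0.291) and without control replicate 8 (0.0676) or 9 (0.0630) or IMQ replicate 10 (0.224) or 11 (0.175). *Ccl25* had 26164, 24327 and 23654 normalized counts in control and 18771 and 20149.6 in IMQ-treated small intestine. The ranges of *Ccl25* did not overlap, but the test was not passed (-0.34 ± 0.15, adjusted p = 0.437). The 5 genes of proximal position in the small intestine summed to 993 to 2832 CPM in control and 3586 to 4946 in IMQ libraries. Their median log2 fold change was 0.17, and 0 of the 5 were called. The 9 genes of intestinal epithelium summed to 16623 to 28092 and 29705 to 37110, with 0 of the 9 called. Their median log2 fold change was -0.23, so the sum was higher with IMQ while the median was below 0. Of those with the smallest p, *Apoa4* (1.83 ± 0.58) and *Alpi* (0.74 ± 0.25) were higher. *Lgr5* (-0.40 ± 0.16) and *Cdx1* (-0.30 ± 0.14) were lower. A pair of distal genes, *Fabp6* and *Slc10a2*, summed to 2.65 to 5.70 and 2.03 to 2.85 CPM, and neither was called. The part of these lists in the levels of *Ccl28* and *Ccl25* was not tested.

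The receptors of the small intestine gave overlapping ranges. *Ccr9* had 679, 681 and 799 normalized counts in control and 733 and 572 in IMQ-treated mice (-0.14 ± 0.18, adjusted p = 0.853). *Ccr10* had 253, 205 and 190.2 against 229 and 237 (0.11 ± 0.23, adjusted p = 0.917). *Cntnap1*, within which *Ccr10* lies, had 250 to 446 counts in control and 1048 and 1077 in IMQ libraries, so the counts of *Ccr10* did not move with those of *Cntnap1*. *Ccr6* had 54.2, 70.6 and 117 against 81.7 and 66.5 (-0.12 ± 0.39, adjusted p = 0.950).

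The ligands shared with skin were not called in the small intestine either. *Ccl20* had 54.2, 111 and 97.0 normalized counts in control and 78.1 and 85.4 in IMQ-treated small intestine (-0.10 ± 0.36, adjusted p = 0.960). *Ccl17* had 16.3, 12.1 and 24.0 against 14.5 and 6.65 (-0.70 ± 0.48, adjusted p = 0.667), and the value of *Ccl17* was -1.37 without IMQ replicate 10. The standard errors leave room for a change of either sign. *Ccl27a* (-0.23 ± 0.71, adjusted p = 0.950) had 3 to 24 counts, and *Ccr4* (0.04 ± 0.32, adjusted p = 0.982) 20 to 26. *Ccr8* had 5, 0 and 3 counts in control and 0 and 0 in IMQ libraries and was not tested, since it did not have a count in every library. *Ccl22* had 116, 172 and 222 normalized counts in control and 107 and 53.2 in IMQ libraries (-1.08 ± 0.41, adjusted p = 0.335).

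**Figure D3:**
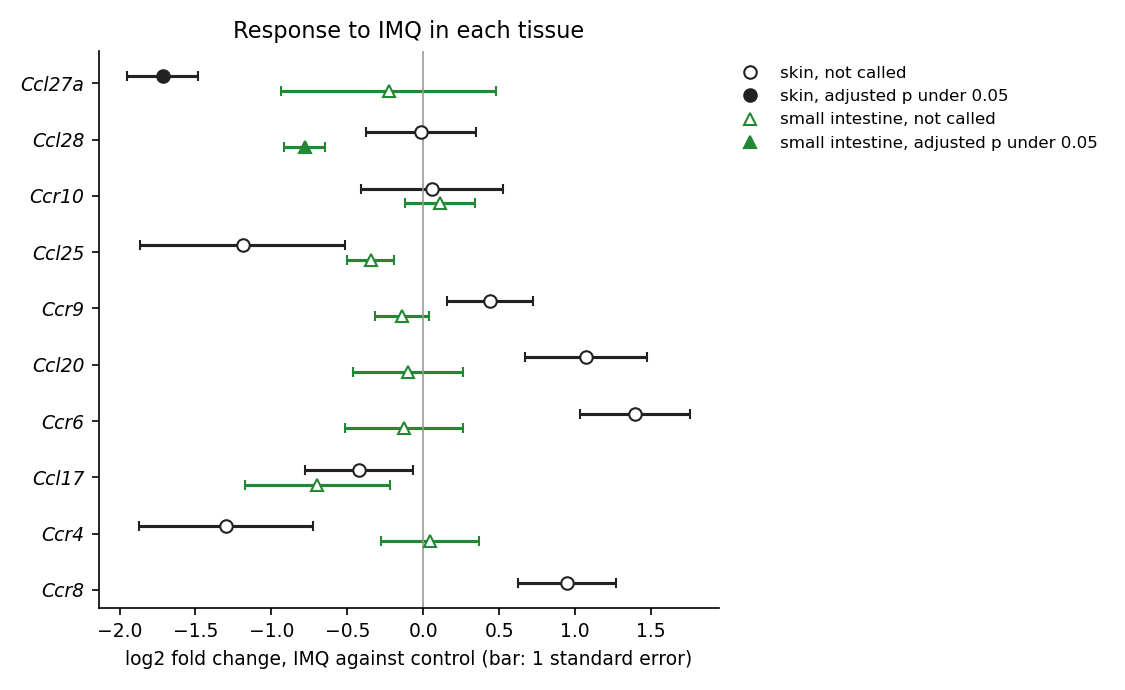
Log2 fold change of each gene, IMQ against control, with a bar of 1 standard error, in skin (black circles, 3 against 3 libraries) and small intestine (green triangles, 3 against 2), with filled symbols for an adjusted p under 0.05. *Ccl27a* in skin (-1.72) and *Ccl28* in small intestine (-0.78) are the filled symbols, and *Ccr8* has no value in the small intestine.

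The response to IMQ was then compared between the tissues by an interaction term in one fit of all 11 libraries, which uses the same control libraries as the comparisons above. None of the 10 genes passed, against 1.18% of 26103 genes (edgeR). At an unadjusted p under 0.05 there were 2, *Ccr6* (-1.51 ± 0.59, small intestine minus skin, adjusted p = 0.295) and *Ccr8* (adjusted p = 0.225), as for 13.7% of all genes. DESeq2 called 0 and limma on log2(FPKM + 1) called 1, *Ccl27a* (adjusted p = 0.0277). By counts, the interaction of *Ccl27a* was 1.502 ± 0.75 (adjusted p = 0.428) and that of *Ccl28* was -0.76 ± 0.39 (adjusted p = 0.446). The other interactions were -1.15 ± 0.61 for *Ccl20* (-1.80 without skin control replicate 2, adjusted p = 0.0521) and 1.36 ± 0.80 for *Ccr4* (0.71 without it). *Ccr9* had -0.57 ± 0.35, *Ccl17* -0.27 ± 0.64 and *Ccr10* 0.06 ± 0.56. *Ccl25* had 0.86 ± 0.80, and -0.38 without skin control replicate 2. The fall of *Ccl27a* in skin and that of *Ccl28* in the small intestine were thus not shown to differ from the other tissue.

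The receptors were also set against the counts of *Cd3d*, *Cd3e* and *Cd3g*, the invariant chains of the T cell receptor complex, in the same library. These ratios are descriptions, and CCR6, CCR9 and CCR10 are also carried by B cells, dendritic cells or plasma cells. A ratio also shifts where CD3 counts shift and the receptor does not. The share of all genes whose ratios do not overlap was not determined. Per 100 CD3 counts, *Ccr4* had 56.9, 45.8 and 24.3 counts in control skin and 6.28, 7.78 and 6.02 in IMQ-treated skin. The groups did not overlap. *Ccr10* had 2.14 to 5.19 in control and 0.997 to 1.67 in IMQ-treated skin, again without overlap, although its normalized counts overlapped (0.06 ± 0.47). *Ccr6* had 36.1 to 49.6 and 32.3 to 47.8, *Ccr8* 4.54 to 8.98 and 3.36 to 6.73, and *Ccr9* 14.1 to 33.0 and 4.52 to 22.9, all with overlap. The ratio of *Ccr6* to CD3 thus stayed in one range while the normalized count of *Ccr6* was higher in every IMQ library. CD3 counts in skin were 557 to 1123 in control and 1003 to 3189 in IMQ libraries, and the log2 fold changes of the 3 chains were 1.27 to 1.45, none called.

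In the small intestine, *Ccr9* had 47.4 to 79.3 counts per 100 CD3 counts in control and 67.3 and 98.7 in IMQ libraries, which overlap. *Ccr10* had 13.1 to 23.9 against 27.9 and 30.8, without overlap. *Ccr4*, at 20 to 26 counts, had 1.59 to 2.35 against 2.999 and 3.17, also without overlap. The normalized counts of *Ccr10* (0.11 ± 0.23) and *Ccr4* (0.04 ± 0.32) overlapped between the groups, while CD3 counts were 851 to 1568 in control and 819 and 767 in IMQ libraries. *Ccr6* had 3.79 to 8.23 against 7.82 and 10.99, with overlap, and *Ccr8* had 0 to 0.379 against 0 in both. The log2 fold changes of the CD3 chains there were -0.69 to -0.51, none called.

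**Figure D4:**
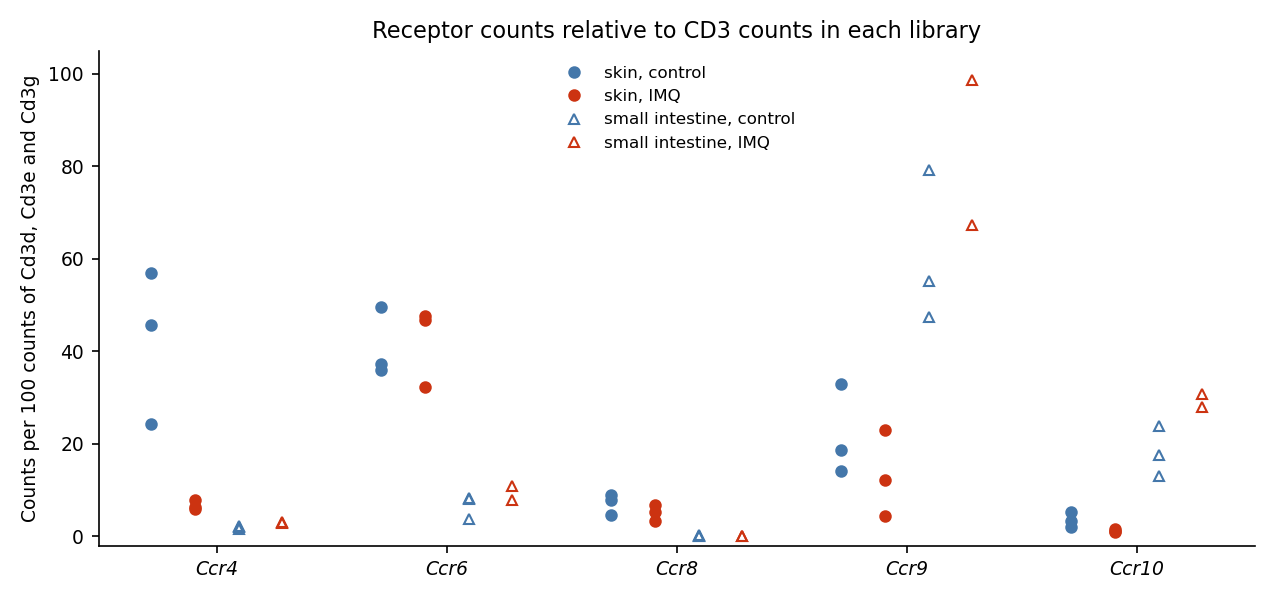
Counts of each receptor per 100 counts of *Cd3d*, *Cd3e* and *Cd3g* in the same library, with filled circles for skin, open triangles for small intestine, blue for control and red for IMQ. *Ccr4* in skin lies at 24.3 to 56.9 in control and 6.02 to 7.78 in IMQ libraries, and *Ccr9* in the small intestine at 47.4 to 98.7.

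Adhesion genes that work with these receptors were counted next. In skin, 5 of 15 tested rose and 0 fell, with a median log2 fold change of 0.85. *Selp* (2.37 ± 0.23) and *Sele* (2.01 ± 0.26), the endothelial selectins, rose, as did *Itgal* (2.51 ± 0.27), the alpha chain of LFA-1. In the small intestine, 5 of 15 rose and 0 fell, with a median of 0.09. *Icam1* (1.69 ± 0.16), *Selplg* (1.70 ± 0.16), which encodes the selectin ligand PSGL-1, *Itgal* (1.25 ± 0.15) and *Itga4* (0.88 ± 0.11), an alpha chain that the gut-homing integrin shares with another integrin, rose there. *Madcam1*, the remaining gene of the list that rose there, had 1.30 ± 0.26 (adjusted p = 0.0465). *Itgb7*, the beta chain of the gut-homing integrin, had 0.03 ± 0.19 in the small intestine (adjusted p = 0.977), and *Itga4* had 0.85 ± 0.20 in skin (adjusted p = 0.0544). *Madcam1* and *Itgb7* were named after their values were seen. The sum of neutrophil genes, which share several of these molecules, was 13.9 to 21.4 CPM in control and 3207 to 4036 in IMQ-treated skin. In small intestine it was 8.67 to 10.9 and 42.8 to 43.1. Of 4 neutrophil genes tested there, *Csf3r* rose (3.21 ± 0.23). *S100a9* (2.24 ± 0.64), *Cxcr2* (-0.25 ± 0.42) and *Retnlg* (-0.07 ± 0.21) were not called. The part of neutrophils in the adhesion genes was not tested.

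Genes of retinoic acid and vitamin D metabolism, which imprint gut and skin homing, gave 1 call in skin and none in the small intestine among 10 tested in each tissue. *Aldh1a2*, a retinaldehyde dehydrogenase, fell in skin (-2.44 ± 0.51, adjusted p = 0.0379). *Vdr*, the vitamin D receptor, had -1.19 ± 0.28 in skin (adjusted p = 0.0557) and *Cyp27b1*, which makes the active hormone, -3.22 ± 0.88 (adjusted p = 0.0795). Of the retinoic acid genes in the small intestine, *Aldh1a1* had the smallest p (0.85 ± 0.36, adjusted p = 0.411).

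Of 11 listed cytokines known to induce *Ccl20* or *Ccl17*, 9 were found by name in the expression table, and *Il36a* and *Il36g* were not. In skin, 2 of 6 tested rose, *Il1b* (2.84 ± 0.28, adjusted p = 0.00432) and *Tslp* (2.89 ± 0.29, adjusted p = 0.00445). *Il17a*, *Il17f* and *Il22* had 0 counts in all 3 control skin libraries and were not tested there, and each had counts in IMQ-treated skin. In the small intestine, 1 of 4 rose, *Il1b* (3.16 ± 0.38, adjusted p = 0.00519), while *Ccl20* had no called change there. *Tnf* had 1.03 ± 0.37 in skin (adjusted p = 0.153) and 1.91 ± 0.43 in the small intestine (adjusted p = 0.0772).

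Among cells that carry the receptors, genes of gamma-delta and type 17 lymphocytes, which express CCR6, rose in skin in 4 of 6 cases: *Blk* (5.10 ± 0.49), *Il23r* (3.89 ± 0.39), *Cd163l1* (2.23 ± 0.26) and *Trdc* (2.83 ± 0.57). In the small intestine, 0 of 6 passed, with *Il23r* at 0.69 ± 0.31. Of 10 T cell genes, *Zap70* rose in skin (1.94 ± 0.43) and none passed in the small intestine. Of 6 genes of regulatory and type 2 T cells, *Gata3* fell in skin (-0.84 ± 0.12), and keratinocytes express it too. Of 4 B cell genes tested in skin, *Cd79b* (3.42 ± 0.43) and *Cd22* (2.85 ± 0.36) rose. None of 8 B cell genes passed in the small intestine. No plasma cell gene passed in skin (6 tested) or small intestine (7 tested), where they summed to 6355 to 12472 CPM in control and 6224 to 6512 in IMQ libraries. Of 8 dendritic cell genes in the small intestine, *Itgax* (2.82 ± 0.17) and *Xcr1* (1.15 ± 0.23) rose, while *Cd209a* had -0.94 ± 0.34 (adjusted p = 0.282) and *Ccl22*, given above, was also lower without a call. None of 9 passed in skin. In the epithelium that covers gut lymphoid follicles, where *Ccl20* is made, *Gp2* fell in the small intestine (-3.64 ± 0.47, adjusted p = 0.00711) and *Anxa5*, which many cells express, rose (1.02 ± 0.12), while *Ccl20* itself was not called. In skin, *Tnfaip2* was the gene of that list that rose (1.45 ± 0.15). Of 2 eosinophil genes tested in skin and 4 in small intestine, none passed.

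The genes whose pattern was most like each member were found by Pearson's r over the 11 libraries, of log2 CPM with the mean of each tissue subtracted, among 16316 genes. *Ccl20* was most like *Naip2* (r = 0.966), *Galnt15* and *Neurl3*. *Ccr6* was most like *Capza2* (0.971), *Icos* (0.967), a T cell costimulator, and *Ets1* (0.954). Among the genes most like *Ccr8* were *Trbc1* (0.945), a constant region of the T cell receptor, and *Sf3b6*. *Ccl25* was most like *Lgals2* (0.986), *Lgals4* (0.980) and *Spink1* (0.980), 3 genes abundant in intestinal epithelium, and the skin libraries share in this the high value of control replicate 2. *Ccl27a* was most like *Abca5* (0.971), its near-copy *Gm13306* (0.964) and *Cdkn1b* (0.959). *Ccl28* was most like *Mterf3* (0.952), *Ccr4* like *Pkib* (0.957), *Ccr9* like *Slmap* (0.952), *Ccr10* like *Car7* (0.921) and *Ccl17* like *Stra6* (0.892). Between ligands and their receptors, r was 0.847 for *Ccl20* with *Ccr6* and 0.632 for *Ccl17* with *Ccr4*, and 0.06 to 0.28 for *Ccl17* with *Ccr8*, *Ccl25* with *Ccr9*, and *Ccl27a* and *Ccl28* with *Ccr10*. These values describe 11 libraries that include the treatment groups.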

How the data were processed

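Total RNA of mouse skin and small intestine was sequenced, and per the labels the reads were trimmed with Trimmomatic, aligned to mm10 with HISAT2 2.1.0 and quantified with StringTie 2.1.3b. The authors deposited a table of 45777 genes with whole-number read counts, without normalization, for each of the 11 libraries. The same table holds FPKM, which the authors scaled by transcript length and library size, and TPM, which the authors scaled to a common sum and which was left untested, since depth is lost in it. The counting tool, its strand setting and its treatment of reads that match several genes are not given in the sources used here. Counts of *Ccl27a*, of overlapping genes and of other near-copies are therefore uncertain, and a difference in transcript usage changes FPKM.

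Each library was assigned to its group by its title. Counts were tested with edgeR 4.0.16 (R 4.3.3; quasi-likelihood test, relative log expression, Benjamini-Hochberg adjustment over all genes tested, threshold 0.05). Each tissue was fitted alone over the genes whose count was 1 or more in all of its libraries. Comparisons between tissues and the interaction used one fit of all 11 libraries over genes with a total count of at least 10. The study's methods use the Wald test of DESeq2, which was an alternative here (1.42.0). The standard error is the log2 fold change divided by the root of the F statistic. A fold against a group at 0 is a bound at 3 counts per library. Positions and transcripts came from GRCm38.p6, the assembly of mm10.

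Total counts were 44995414 to 58526384 per library. Libraries of one group differed beyond sampling noise (chi-square per degree of freedom 34 to 231 over 10 pairs), so the spread between libraries sets the precision of abundant genes, and depth also limits genes with few counts such as *Ccr8* in the small intestine. In edgeR's fits the biological coefficient of variation came to 0.245 (skin) and 0.215 (small intestine). The test was run on simulated data, where the fit of skin found 100% of 200 changed genes among 15773. The interaction found 95% of 200 among 15041. Recovery at the fold changes and counts of the 10 genes was not tested. All 10 members were named in every comparison, and of each other list at most 4 genes, those with the smallest p. The exceptions are *Ccl22*, *Ccl1*, *Ccl8*, *Ackr2* and *Ackr4*, which were always given, and *Madcam1*, *Itgb7* and genes named because a count was 5 or fewer, after their values were seen. *Il36a* and *Il36g* were named because they were not found. The members and lists were chosen with earlier results of these data known. Likeness used log2(CPM + 0.5) of genes with a mean of at least 1 CPM. Figures and ratios used Python 3.11.15. The alternatives tried were normalization by TMM or by upper quartile, DESeq2, limma-voom, the filterByExpr filter or none, limma 3.58.1 on log2(FPKM + 0.01) and log2(FPKM + 1), a filter for counts in all 11 libraries, one joint fit, each library left out in turn and, chosen after the data were seen, the sum of *Ccl27a*, *Ccl27b* and *Gm13306*. Some genes that these rules selected are not reported here.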

Additional observations from a re-analysis of the deposited data

How the results depend on the processing

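No paired analysis was possible because the labels do not say which samples came from one mouse. The tests between tissues and of the interaction treated all 11 libraries as independent. If skin and intestine samples came from the same mice, those p-values do not account for it. Of 858 log2 fold changes under alternatives, 803 kept their direction and their side of the threshold, 10 passed the threshold only there and 14 lost it. Of the 10 genes, 1 passed in skin, against 3 with DESeq2 and 0 to 3 with 1 library left out (3 without skin control replicate 2, 0 without skin IMQ replicate 5). In small intestine 1 passed, against 0 on both FPKM scales and in one fit of all 11 libraries and 0 to 1 with 1 library left out (0 without control replicate 8 or 9 or IMQ replicate 10 or 11). For the interaction 0 passed, against 1 on the log2(FPKM + 1) scale. The cause was not tested. Over all genes, 1382 of 20512 passed in skin (60.1% of them higher), against 3030 of 19302 with DESeq2 (49.97% higher). On the FPKM scales 912 and 852 passed, and 258 to 2521 with 1 library left out (2521 without skin control replicate 2, 258 without skin IMQ replicate 5). In small intestine 588 passed, against 1206, 291 and 344, and 294 to 801. For the interaction 308 passed (65.3% of them higher), against 1418 with DESeq2, 606 on the log2(FPKM + 1) scale (54.1% higher), 462 when a count was required in all 11 and 73 to 742 with 1 library left out.

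The 31 values that changed sign were all of changes that no test called. In skin, *Ccl28* was 0.028 with limma-voom and *Ccr10* -0.0556 with limma-voom and -0.106 on log2(FPKM + 0.01), and with 1 library left out *Ccl28* was -0.258 to 0.322, *Ccr10* -0.318 to 0.417 and *Ccl25* -1.56 to 0.0265. In small intestine, *Ccr4* was -0.0119 with the upper quartile and -0.00389 and -0.00102 on the FPKM scales, and *Ccl27a* 0.0833 with limma-voom. With 1 library left out, *Ccl20* was -0.342 to 0.107, *Ccl27a* -0.756 to 0.523, *Ccr4* -0.0605 to 0.184, *Ccr6* -0.336 to 0.245 and *Ccr9* -0.324 to 0.0264. The interaction of *Ccr10* was -0.00944 with the upper quartile and that of *Ccl17* 0.0256 on log2(FPKM + 1). With 1 library left out, that of *Ccl25* was -0.383 to 1.25, that of *Ccl17* was -0.939 to 0.141 and that of *Ccr10* was -0.301 to 0.435. Genes with few counts, *Ccr8*, *Ccl27a* and *Ccl17* in the small intestine and *Ccr10* in skin, are limited by depth.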
